A study of Sus scrofa with 6 samples.

Results

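Mitochondrial ribosomal proteins, the nuclear-encoded proteins of the ribosome inside mitochondria, were compared between IPEC-1 and IPEC-J2, which are epithelial cell lines from pig intestine. A gene was taken as a member where its symbol in the platform annotation began with MRPL (large subunit) or MRPS (small subunit) followed by a digit. This gave 58 of the 6765 genes with a symbol, 36 of the large and 22 of the small subunit. All 58 had a signal above the lowest possible value on at least 1 array and all were tested. Another 6 probe sets, 5 for MRPL55 and 1 for MRPL22, carry several gene entries in the annotation and were left out.

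Both lines arose by spontaneous immortalisation of small intestinal epithelium of newborn piglets, and each is a single line, so that the replicates are cultures of that line. They were untreated and grew on membrane inserts in DMEM/Ham's F-12 with 5% foetal calf serum, insulin-transferrin-selenium, 16 mmol/L HEPES and 5 ng/mL epidermal growth factor at 39°C for 7 days. The labels and the methods differ in the length of the culture, and the methods give each line a cell bank number of its own, whereas the labels repeat 1 number. RNA of 3 cultures per line (500 ng each) was hybridised to 6 Affymetrix Porcine Genome Arrays, which hold several short probes (a probe set) for each transcript.

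The mitochondrial ribosome translates the few mRNAs of mitochondrial DNA, which encode core subunits of the respiratory chain and of ATP synthase. Its rRNAs come from mitochondrial DNA, while its proteins are encoded in the nucleus, made in the cytosol and imported. The small subunit reads the mRNA and the large subunit joins the amino acids. Some of its proteins have counterparts in bacterial ribosomes and others are found only in mitochondria. In enterocytes, as in other cells that depend on oxidative phosphorylation, this translation is needed to build the respiratory chain.

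Signals are given on the log2 scale, with a floor of 4.00 on every array. A difference is the mean of the 3 IPEC-J2 arrays minus the mean of the 3 IPEC-1 arrays, and a fold is its antilog. A gene was called higher or lower in IPEC-J2 at an adjusted p under 0.05 from limma. The array of IPEC-J2 replicate 1 stood apart, with 48.3% of its probe sets at the floor and a 75th percentile of 8.31, beside 40.5 to 44.5% and 8.51 to 8.56 on the other arrays. A culture note in the labels (note A) links IPEC-1 replicate 1 to IPEC-J2 replicate 3, and another (note B) links IPEC-1 replicate 2 to IPEC-J2 replicate 1. All 10 epithelial marker genes on the array were above the floor in both lines, and EPCAM, an epithelial adhesion molecule, averaged 13.39 in IPEC-1 and 13.55 in IPEC-J2. Of these markers KRT19, a keratin, was lower in IPEC-J2 (-0.80, adjusted p = 0.00223), CLDN7, a tight junction protein, was higher (1.09, adjusted p = 0.0297), and ELF3 had a difference of -0.87 (adjusted p = 0.107). Of 8 fibroblast markers, 4 were above the floor in IPEC-1 and 5 in IPEC-J2, with summed linear signals of 4955 to 10764 and 2965 to 4708. DCN, LUM and COL3A1 were at the floor on all arrays, while THY1 was at the floor in IPEC-1 and at 9.55 in IPEC-J2. VIM, with averages of 12.86 and 11.48, and PDGFRB, with a difference of -0.84, were lower on all IPEC-J2 arrays but missed the test (adjusted p = 0.0989 and 0.192). Only 1 of 6 endothelial markers (PECAM1) was above the floor in either line. Of 5 leukocyte markers, 1 was above the floor in each line, CD3E in IPEC-1 and CD14 in IPEC-J2, while PTPRC, which marks all leukocytes, was at the floor on all arrays. The part of these markers in the results was not tested.

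Large subunit genes tended to have less signal in IPEC-J2 than in IPEC-1. Of the 36 genes, 11 were lower (30.6%) and 0 were higher in IPEC-J2, whereas 11.2% of all genes tested were lower and 9.46% were higher. Among the 5513 genes above the floor on any array, 13.8% were lower and 11.6% higher, and among the 4410 genes at least as bright as the dimmest member, 15.4% and 13.2%. The median difference of the large subunit was -0.21, with 26 genes below 0 and 10 above, beside -0.05 over the genes above the floor. No large subunit gene was higher at an unadjusted p under 0.05 by limma (0 genes) or by the methods' t-test (0 genes). The lower genes were 1.17-fold to 1.81-fold lower. In RNA of whole cultures, fewer cells that carry a transcript and less transcript per cell cannot be told apart.

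**Figure D1:**
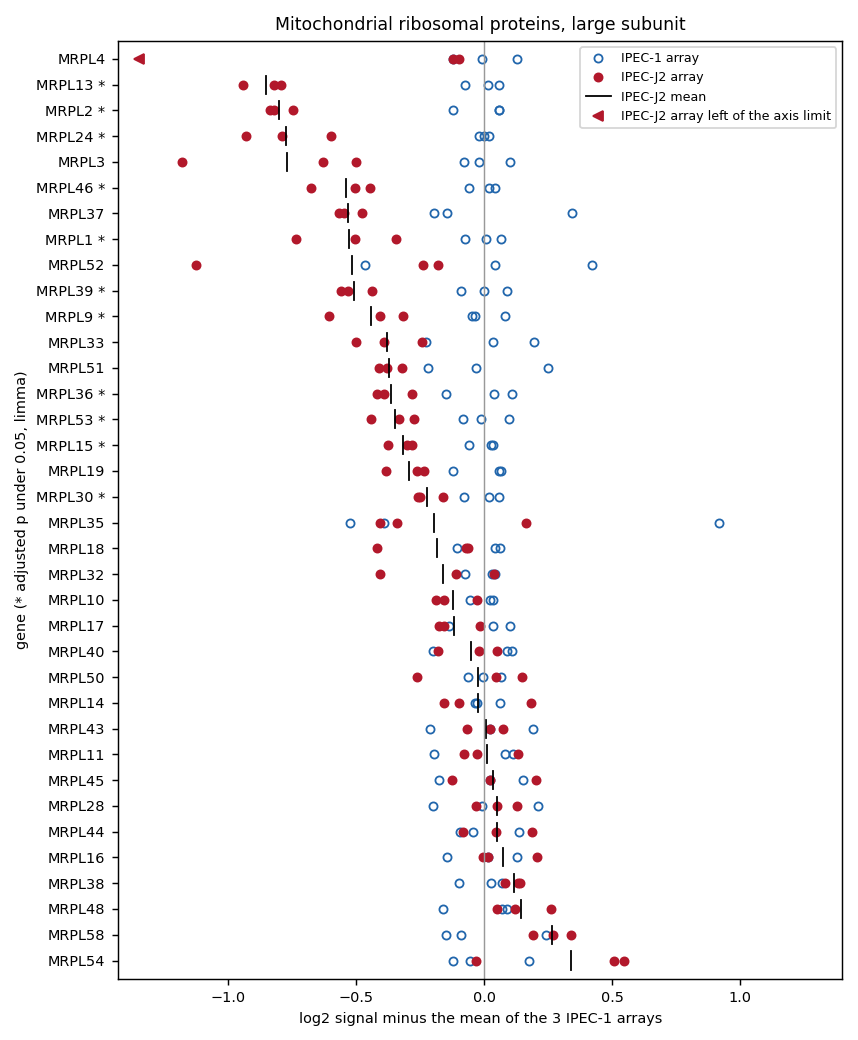
Log2 signal of each array minus the mean of the 3 IPEC-1 arrays (x axis) for the 36 genes of the large subunit (y axis, ordered by difference), with IPEC-1 arrays as open blue circles, IPEC-J2 arrays as filled red circles, the IPEC-J2 mean as a black tick and an asterisk for an adjusted p under 0.05. In 16 genes all IPEC-J2 arrays lie left of all IPEC-1 arrays, and the triangle of MRPL4 stands for 1 array at the floor, which takes its mean out of the plot.

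MRPL13, MRPL2 and MRPL24 had the largest averaged decreases among the called genes with MRPL symbols. MRPL13, the counterpart of an early-binding assembly protein, had log2 signals of 10.18, 10.14 and 10.05 on the IPEC-1 arrays and 9.18, 9.30 and 9.33 on the IPEC-J2 arrays. It was 1.81-fold lower in IPEC-J2 (difference -0.85, SE 0.0571, adjusted p = 0.00200 from limma). MRPL2, whose bacterial counterpart lies beside the peptidyl transferase centre, is measured by 2 probe sets. The first had signals of 9.59, 9.49 and 9.39 in IPEC-1 against 8.60, 8.49 and 8.57 in IPEC-J2, and the second 9.54, 9.64 and 9.38 in IPEC-1 against 8.92, 8.85 and 8.80 in IPEC-J2. Both probe sets separated the lines, and the gene was 1.74-fold lower (difference -0.80, SE 0.0631, adjusted p = 0.00313). MRPL24, the counterpart of a protein that starts large subunit assembly, had signals of 9.20, 9.16 and 9.18 in IPEC-1 against 8.25, 8.58 and 8.39 in IPEC-J2. This was a 1.71-fold lower level (adjusted p = 0.00896), without overlap between the lines.

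Of 3 stalk proteins 1 was lower (MRPL1), and of 6 proteins of the central protuberance 1 was lower (MRPL46, 16.7%), beside 15.4% of the genes at least as bright as the dimmest member. MRPL1, the protein of the L1 stalk, which moves with the departing tRNA, had signals of 9.10, 8.96 and 9.04 in IPEC-1 against 8.30, 8.53 and 8.69 in IPEC-J2 which made it 1.44-fold lower (adjusted p = 0.0416). MRPL46 averaged 7.09 ± 0.05 (SD, n = 3) in IPEC-1 and 6.55 ± 0.12 (SD, n = 3) in IPEC-J2, or 1.46-fold less (adjusted p = 0.0121 from limma), over 3 probe sets of which 1 was at the floor on all arrays. MRPL39, a mitochondrion-specific protein related to a tRNA synthetase, had signals of 9.73, 9.64 and 9.55 in IPEC-1 against 9.11, 9.08 and 9.20 in IPEC-J2, a 1.42-fold lower level (adjusted p = 0.00894). All of these were fully separated between the lines. MRPL9 was 1.36-fold lower (10.38, 10.25 and 10.26 in IPEC-1 against 9.69, 9.89 and 9.98 in IPEC-J2). MRPL36, a short zinc-binding protein, was 1.29-fold lower, MRPL53, a mitochondrion-specific protein, 1.27-fold and MRPL30 1.17-fold, with adjusted p-values of 0.0492, 0.0320 and 0.0451. MRPL15 was 1.25-fold lower (adjusted p = 0.0102) as an average that includes a probe set at the floor on all arrays, and its other probe set fell by 0.64 on the log2 scale.

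Each of the 11 lower genes was fully separated between the lines, so that its difference within either culture note had to be negative. These differences ran from -0.22 (MRPL30) to -0.88 (MRPL2) in note A and from -0.27 to -0.96 (MRPL13) in note B. MRPL13, MRPL2, MRPL24, MRPL39, MRPL46 and MRPL15 passed the test without any 1 array. MRPL1, MRPL9, MRPL36, MRPL53 and MRPL30 did not, and each lost its call without at least 4 of the 6 arrays in turn, with a highest adjusted p between 0.0934 and 0.158. With the notes as a block, and the remaining arrays (IPEC-1 replicate 3 and IPEC-J2 replicate 2) taken as the third pair, MRPL13, MRPL2, MRPL39 and MRPL53 still passed. The calls of MRPL24 (adjusted p = 0.0519), MRPL30 (0.0523), MRPL9 (0.0585), MRPL1 (0.0614), MRPL46 (0.0725), MRPL15 (0.0779) and MRPL36 (0.0810) ended. After centring on the 75th percentile, MRPL15 (0.133), MRPL53 (0.148), MRPL36 (0.180) and MRPL30 (0.314) were no longer called. The number of lower genes was 7 without IPEC-1 replicate 1, 6 without IPEC-1 replicate 2, 9 without IPEC-1 replicate 3, 8 without IPEC-J2 replicate 1, 6 without IPEC-J2 replicate 2 and 8 without IPEC-J2 replicate 3. Some of these counts include a gene outside the 11. It was MRPL37 without IPEC-1 replicate 1, MRPL19 without IPEC-1 replicate 3 and MRPL3 without IPEC-J2 replicate 3.

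Another 5 genes of the large subunit lay lower on all IPEC-J2 arrays than on all IPEC-1 arrays but missed the test. These were MRPL3, MRPL37, MRPL33, MRPL51 and MRPL19, with differences of -0.77, -0.53, -0.38, -0.37 and -0.29 and adjusted p-values of 0.0688, 0.104, 0.141, 0.137 and 0.0594 from limma. With the 11 lower genes, 16 of 36 (44.4%) were separated in this direction, beside 22.5% of all genes, 27.6% of those above the floor and 30.9% of those at least as bright as the dimmest member. MRPL37, a mitochondrion-specific protein, had signals of 10.42, 9.93 and 9.88 in IPEC-1, of which replicate 1 was the highest, and 9.51, 9.60 and 9.53 in IPEC-J2. Without IPEC-1 replicate 1 its difference was -0.36 and passed the test (adjusted p = 0.0199).

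MRPL4, whose bacterial counterpart lines the tunnel for the new protein, had the most negative mean of the large subunit from a single array. Its signals were 8.41, 8.27 and 8.16 in IPEC-1 against 4.00, 8.16 and 8.18 in IPEC-J2. Only IPEC-J2 replicate 1, the dim array, was low, and the other arrays of the lines overlapped. The difference of -1.50 (adjusted p = 0.571) became -0.11 without that array.

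Of the large subunit genes that were not called, 10 had a positive difference. MRPL54, a mitochondrion-specific protein, had signals of 8.73, 8.43 and 8.50 in IPEC-1 against 8.52, 9.06 and 9.10 in IPEC-J2 (difference 0.34, adjusted p = 0.338). MRPL58, a peptidyl-tRNA hydrolase that became part of the ribosome and was formerly called ICT1, had a difference of 0.27 (adjusted p = 0.231). Both overlapped between the lines, although MRPL58 was called higher without IPEC-1 replicate 1 (0.39, adjusted p = 0.0363). MRPL38 of the central protuberance was the only gene of the large subunit with all IPEC-J2 values above all IPEC-1 values, by 0.12 (adjusted p = 0.200), beside 16.2% of all genes, 19.9% of those above the floor and 22.4% of those at least as bright as the dimmest member with all IPEC-J2 values above. MRPL10 and MRPL11 of the base of the other stalk had differences of -0.12 and 0.01 with overlapping values. Of 4 genes for proteins near the exit of the tunnel, 1 was lower (MRPL24, 25.0%), beside 11.2% of all genes. Among the others, MRPL17, MRPL44 and MRPL45 had differences of -0.12, 0.05 and 0.03 with overlapping values.

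Small subunit genes went both ways, with more genes lower than higher. Of 22 genes, 6 were lower (27.3%) and 2 were higher (9.09%) in IPEC-J2, beside the 11.2% and 9.46% of all genes. The median difference was -0.21, as in the large subunit, with 14 genes below 0 and 8 above. In 11 of the 22 genes all IPEC-J2 values lay below all IPEC-1 values, and in 2 genes all lay above. Of all genes, 22.5% were separated downwards and 16.2% upwards. These shares were 27.6% and 19.9% above the floor, and 30.9% and 22.4% among genes at least as bright as the dimmest member. The SD of the differences was 0.80 over the 22 genes and 0.49 without MRPS27, which was at the floor on 2 IPEC-J2 arrays. In the large subunit it was 0.37 over the 36 genes and 0.31 without MRPL4, which was at the floor on 1.

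**Figure D2:**
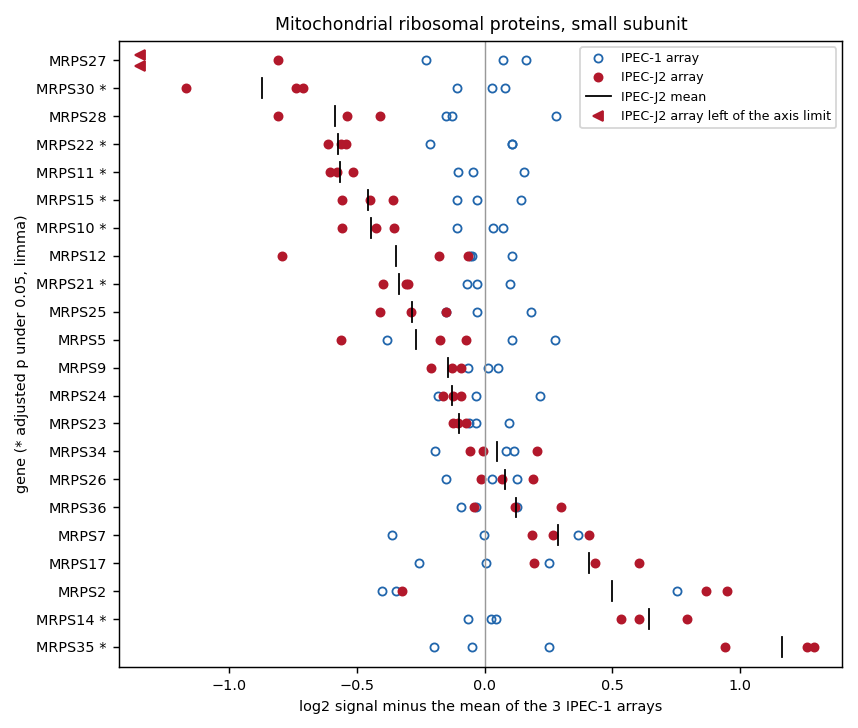
Log2 signal of each array minus the mean of the 3 IPEC-1 arrays (x axis) for the 22 genes of the small subunit (y axis, ordered by difference), with IPEC-1 arrays as open blue circles, IPEC-J2 arrays as filled red circles, the IPEC-J2 mean as a black tick and an asterisk for an adjusted p under 0.05. MRPS35 and MRPS14 at the bottom lie wholly to the right in IPEC-J2, 11 genes lie wholly to the left, and the 2 triangles of MRPS27 stand for arrays at the floor.

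MRPS30 had the largest decrease of the called genes of both subunits. Its signals were 8.51, 8.32 and 8.46 in IPEC-1 against 7.26, 7.72 and 7.69 in IPEC-J2, which was 1.83-fold lower (difference -0.87, SE 0.151, adjusted p = 0.0231). In spite of its name, this mitochondrion-specific protein sits in the large subunit in structures of the mammalian mitochondrial ribosome. MRPS22, a mitochondrion-specific protein mutated in inherited mitochondrial disease, had signals of 8.89, 8.89 and 8.57 in IPEC-1 against 8.17, 8.22 and 8.24 in IPEC-J2, a 1.49-fold lower level (adjusted p = 0.0258). MRPS11, whose bacterial counterpart lies on the platform beside the mRNA exit, had signals of 9.22, 9.42 and 9.16 in IPEC-1 against 8.69, 8.75 and 8.66 in IPEC-J2 and was 1.48-fold lower (adjusted p = 0.0136). The lines did not overlap in any of these genes.

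Other rRNA-binding proteins of the small subunit were lower by less. MRPS15 was 1.37-fold lower (10.45, 10.62 and 10.37 in IPEC-1, 10.12, 10.03 and 9.92 in IPEC-J2). MRPS10 of the head was 1.36-fold lower (10.21, 10.25 and 10.07 in IPEC-1, 9.62, 9.82 and 9.75 in IPEC-J2). MRPS21 was 1.26-fold lower (10.97, 11.10 and 10.93 in IPEC-1, 10.70, 10.60 and 10.69 in IPEC-J2). The adjusted p-values were 0.0314, 0.0223 and 0.0223, and each gene was separated between the lines.

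MRPS35 and MRPS14 were the only called members that were higher in IPEC-J2. MRPS35, a mitochondrion-specific protein, had signals of 7.45, 7.00 and 7.15 in IPEC-1 against 8.14, 8.46 and 8.49 in IPEC-J2. It was 2.24-fold higher (difference 1.16, SE 0.165, adjusted p = 0.0141), which was the largest change of any called member. MRPS14, the counterpart of a bacterial head protein, had signals of 9.78, 9.69 and 9.80 in IPEC-1 against 10.29, 10.55 and 10.36 in IPEC-J2. It was 1.56-fold higher (difference 0.64, SE 0.0807, adjusted p = 0.0102). Both were fully separated, so that they had to be higher within each note (1.04 and 0.58 in note A, 1.14 and 0.60 in note B). Both passed with the notes as a block (0.0287 and 0.0358). MRPS14 passed without any 1 array, while the call of MRPS35 ended without IPEC-1 replicate 3, IPEC-J2 replicate 2 or IPEC-J2 replicate 3 (adjusted p up to 0.0599).

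The 6 decreases of the small subunit were more dependent on single arrays. Being fully separated, all had to be negative within both notes. The differences ran from -0.28 (MRPS21) to -0.82 (MRPS30) in note A and from -0.40 to -1.06 in note B for the same genes. The number of lower genes was 1 without IPEC-1 replicate 1, 2 without IPEC-1 replicate 2 and 4 without IPEC-1 replicate 3. It was 3 without IPEC-J2 replicate 1, 3 without IPEC-J2 replicate 2 and 0 without IPEC-J2 replicate 3. Without IPEC-J2 replicate 2, the 3 were MRPS10, MRPS11 and MRPS27, and MRPS27 is not among the 6 decreases. Both IPEC-J2 values of MRPS27 left were at the floor, so its call does not measure the spread between IPEC-J2 cultures. Without IPEC-J2 replicate 3, the adjusted p-values of the 6 genes were 0.0603 for MRPS11 and up to 0.0978 for MRPS15. Over all genes, the lower calls numbered 761 with all arrays and 417 without IPEC-J2 replicate 3. With the notes as a block, MRPS30 (0.0480) and MRPS21 (0.0463) passed, whereas MRPS15 (0.0574), MRPS11 (0.0728), MRPS22 (0.0915) and MRPS10 (0.123) did not. MRPS15 (0.104) and MRPS21 (0.160) were not called after centring on the 75th percentile.

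MRPS27 and MRPS28 had large differences that missed the test. MRPS27, a mitochondrion-specific RNA-binding protein, had signals of 8.35, 8.44 and 8.05 in IPEC-1 against 4.00, 7.47 and 4.00 in IPEC-J2. All IPEC-J2 arrays were lower, 2 of them at the floor, so that the difference of -3.12 depends on where the floor is set (adjusted p = 0.135 from limma). Without IPEC-J2 replicate 2 the difference was -4.28. Both IPEC-J2 values left were then the floor itself and had no spread. The adjusted p of 0.00202 from limma in that fit therefore does not measure the spread between IPEC-J2 cultures. MRPS28 had signals of 8.55, 8.12 and 8.14 in IPEC-1 against 7.46, 7.86 and 7.73 in IPEC-J2 (difference -0.59, adjusted p = 0.0912, or 0.0463 after centring on the 75th percentile). The lines did not overlap in either gene.

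MRPS2 and MRPS17 had positive differences of 0.50 (adjusted p = 0.627) and 0.41 (adjusted p = 0.213). Their arrays overlapped between the lines. MRPS36, which is now assigned to the 2-oxoglutarate dehydrogenase complex of the citrate cycle, had a difference of 0.12 (adjusted p = 0.571). MRPS12, whose bacterial counterpart is part of the decoding centre, had a difference of -0.35 (adjusted p = 0.389 from limma). Its values were 7.813, 7.647 and 7.657 in IPEC-1 against 6.910, 7.640 and 7.527 in IPEC-J2, so that the lines were barely separated. Of its 3 probe sets, 1 was at the floor on IPEC-J2 replicate 1 (difference -0.75). The others differed by -0.19 and -0.10 and overlapped between the lines. MRPS5 and MRPS24, whose bacterial counterparts lie at the mRNA entrance, had differences of -0.27 and -0.13 with overlapping values. The 9 genes of the small subunit not named by rule, MRPS12, MRPS5 and MRPS24 among them, had differences from -0.35 to 0.29.

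Per array, the median of the large subunit was between 9.20 and 9.34 in IPEC-1 and between 8.91 and 9.13 in IPEC-J2, and the lines did not overlap. The median of the small subunit was between 8.52 and 8.76 in IPEC-1 and between 8.16 and 8.39 in IPEC-J2. The median of all 5513 genes above the floor was 8.09 to 8.12 in IPEC-1, while IPEC-J2 replicates 1, 2 and 3 had 7.83, 8.20 and 8.10. IPEC-J2 replicate 1, the dim array, was the lowest in all 3 medians. Without it, the median difference was -0.14 in the large and -0.12 in the small subunit, and 8 and 3 genes were called lower.

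**Figure D3:**
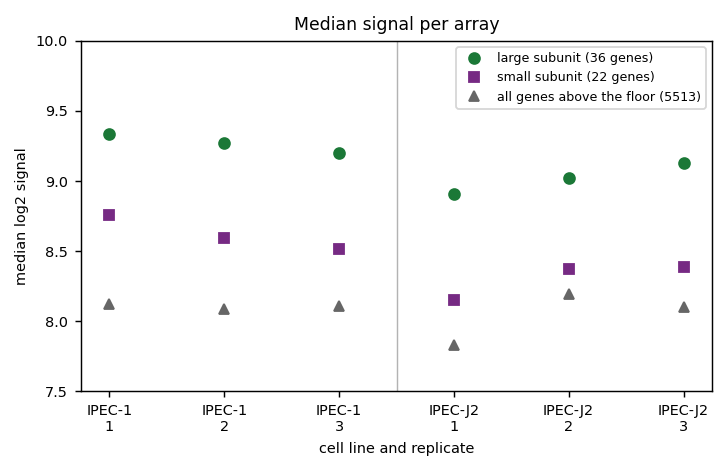
Median log2 signal (y axis) of the 36 genes of the large subunit (circles), the 22 of the small subunit (squares) and the 5513 genes above the floor on any array (triangles) on each of the 6 arrays (x axis). Both subunits lie lower on the 3 IPEC-J2 arrays than on the 3 IPEC-1 arrays, and IPEC-J2 replicate 1 is also lowest over all genes.

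The values per gene are averages over probe sets, and 14 of the 58 members had more than 1 among 77 probe sets in all. In MRPL15, MRPL46 and MRPL38, 1 probe set was at the floor on every array and pulled the mean difference of the gene towards 0. The other probe set of MRPL15 had signals of 9.62, 9.60 and 9.43 in IPEC-1 against 8.95, 8.99 and 8.80 in IPEC-J2, a difference of -0.64, where the average of the gene was -0.32. The remaining probe sets of MRPL46 had differences of -0.77 and -0.85, where the average was -0.54. These 3 probe sets passed the test among all probe sets (adjusted p = 0.0159, 0.0278 and 0.0148 from limma). The remaining probe set of MRPL38 did not (difference 0.24, adjusted p = 0.283).

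In other genes, dim and bright probe sets differed. For MRPL3, which lies near the peptidyl transferase centre, the brighter probe sets had signals of 10.79, 10.83 and 10.50 and of 10.32, 10.53 and 10.17 in IPEC-1, and of 10.22, 10.01 and 10.10 and of 9.69, 9.58 and 9.58 in IPEC-J2. Both were lower in IPEC-J2, by 0.60 and 0.72 on the log2 scale (adjusted p = 0.0469 and 0.0237 among all probe sets). The third probe set ran between 4.00 and 6.31, reached the floor on IPEC-J2 replicate 3, and left the average short of the test. MRPL52 of the central protuberance had a bright probe set with 10.18, 10.16 and 9.97 in IPEC-1 against 9.53, 9.62 and 9.69 in IPEC-J2, a difference of -0.49 (adjusted p = 0.0292 among all probe sets). Its other probe sets were at the floor on 2 and 4 of the arrays, with differences of 0.02 and -1.07, and the average of the gene was not called (-0.52, adjusted p = 0.468). In MRPL35 and MRPS2, the brightest probe set had differences of 0.00 and 0.11, and the larger values came from probe sets at the floor on 4 and 3 arrays. With the brightest probe set of each gene, 13 genes of the large subunit were lower, MRPL3 and MRPL52 in addition. In the small subunit 7 were lower, with MRPS9 in addition at a difference of -0.11, and 2 were higher.

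**Figure D4:**
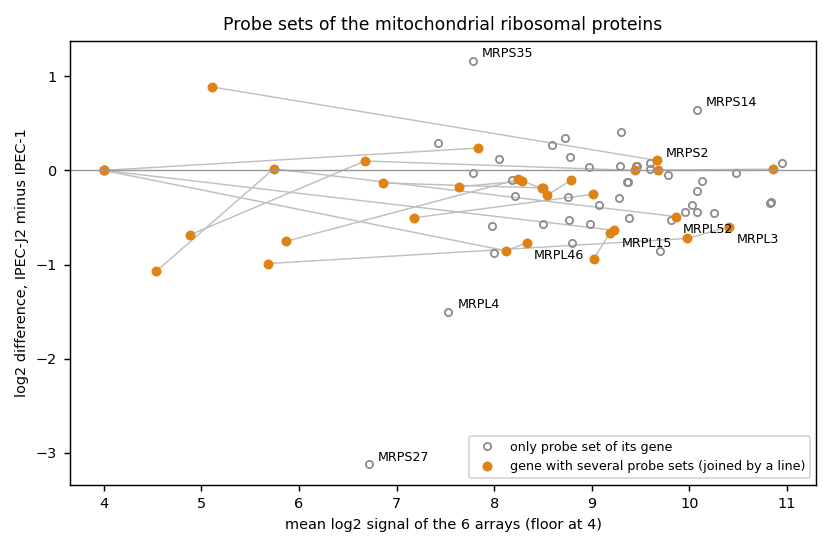
Log2 difference, IPEC-J2 minus IPEC-1 (y axis), against the mean log2 signal over the 6 arrays (x axis, floor at 4) for the 77 probe sets of the members, with probe sets of 1 gene joined by lines. The 3 probe sets at the floor on every array share 1 point at a signal of 4 and a difference of 0, and differences of dim probe sets scatter more than those of the bright probe sets of the same genes.

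Members with and without bacterial counterparts were counted apart. Of all genes tested, 11.2% were lower and 9.46% higher. Among the genes at least as bright as the dimmest member, these shares were 15.4% and 13.2%. In the large subunit, 8 of 21 genes with a counterpart were lower (38.1%) and their median difference was -0.29. Of the 15 genes without one, 3 were lower (20.0%, MRPL39, MRPL46 and MRPL53) and the median was -0.02. In the small subunit, 4 of 13 genes with a counterpart were lower (30.8%) and 1 was higher (7.69%), with a median of -0.27. Of 9 without one, 2 were lower (22.2%) and 1 was higher (11.1%), with a median of -0.10. With the culture notes as a block, 2 of the 21 and 1 of the 13 genes with a counterpart were lower. MRPL39 and MRPL53 stayed lower among those without one. After centring on the 75th percentile, 5 of the 21 and 3 of the 13 were lower. With any 1 array left out, 4 to 7 of the 21 and 0 to 3 of the 13 were lower. The difference between these groups was not tested.

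Of 4 genes for proteins of the mitochondrial ribosome that carry other symbols, 0 were called, beside 11.2% lower and 9.46% higher over all genes. With so few genes, the absence of calls does not set them apart from the members. All 4 differences were negative, with a median of -0.23 beside -0.21 over the members. In 3 (CHCHD1, PTCD3 and GADD45GIP1) all IPEC-J2 values lay below all IPEC-1 values, beside 22.5% of all genes. CHCHD1, DAP3, PTCD3 and GADD45GIP1 had differences of -0.09, -0.18, -0.28 and -1.19 and adjusted p-values of 0.134, 0.433, 0.210 and 0.481 from limma. At an unadjusted p under 0.05, 1 was lower by limma and 0 by the methods' t-test. GADD45GIP1, a protein of the large subunit, was at the floor on IPEC-J2 replicate 1, as MRPL4 was, and at 6.82 and 6.77 on the other IPEC-J2 arrays, below all IPEC-1 values (7.35, 6.93 and 6.88).

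Of 15 genes for assembly and rRNA modification of the mitochondrial ribosome, 5 were lower (33.3%) and 1 was higher (6.67%) in IPEC-J2, with a median difference of -0.22. The shares over all genes were 11.2% and 9.46%. RBFA, which acts in the maturation of the small subunit, had signals of 7.56, 7.72 and 7.55 in IPEC-1 against 6.78, 6.93 and 6.85 in IPEC-J2 and was 1.69-fold lower (adjusted p = 0.00443). YBEY, an endoribonuclease, was 1.49-fold lower, MTERF3 1.31-fold (difference -0.39, or -0.79 with its brightest probe set alone), METTL17, another small subunit assembly factor, 1.30-fold and the helicase DHX30 1.17-fold. MPV17L2, an inner membrane protein that acts in large subunit assembly, was 1.35-fold higher (7.84, 7.81 and 7.64 in IPEC-1, 8.23, 8.13 and 8.22 in IPEC-J2, adjusted p = 0.0176). MALSU1, which binds the large subunit before it joins the small one, was above all IPEC-1 values on all IPEC-J2 arrays but missed the test (0.53, adjusted p = 0.0611). The list had 1 lower and 1 higher gene with the culture notes as a block, and 2 lower and 3 higher genes after centring on the 75th percentile. With any 1 array left out, 2 or 3 genes were lower, and 0 were higher without IPEC-1 replicate 2, IPEC-J2 replicate 1 or IPEC-J2 replicate 3.

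Of 10 genes for mitochondrial translation factors and their partners, 3 were lower (beside 11.2% of all genes) and 0 were higher (beside 9.46%), also at an unadjusted p under 0.05 by limma and by the methods' t-test. OXA1L, the insertase that takes new proteins from the mitochondrial ribosome into the inner membrane, had signals of 11.69, 11.66 and 11.66 in IPEC-1 against 10.65, 10.68 and 10.85 in IPEC-J2. It was 1.92-fold lower (difference -0.94, SE 0.0601, adjusted p = 0.00174), more than any called member except MRPS35 in size, and passed under all 19 alternatives. SLIRP, which binds mitochondrial mRNAs, was 1.50-fold lower (10.82, 11.05 and 10.94 against 10.37, 10.36 and 10.33). GFM1, the elongation factor that moves the mRNA along, was 1.36-fold lower (9.47, 9.28 and 9.35 against 8.82, 8.95 and 8.99). TUFM, the factor that brings tRNAs to the ribosome, had a difference of 0.13 with overlapping values. All 3 calls stayed with the culture notes as a block, 1 gene was higher after centring on the 75th percentile, and 2 remained called without IPEC-1 replicate 3, IPEC-J2 replicate 2 or IPEC-J2 replicate 3, where that of GFM1 ended.

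Among 11 genes that charge mitochondrial tRNAs, KARS, which serves both the cytosol and mitochondria, was the only called gene (1.72-fold lower, adjusted p = 0.00551), a share of 9.09% beside 11.2% of all genes. The median difference of the 11 was -0.30, with 9 below 0 and 1 above. In 4 (36.4%) all IPEC-J2 values lay below all IPEC-1 values, beside 22.5% of all genes. At an unadjusted p under 0.05, 3 were lower by limma and 2 by the methods' t-test. EARS2 and GATB were at the floor on IPEC-J2 replicate 1. Of 8 genes for mitochondrial transcription and DNA maintenance, 0 were called, beside those 11.2% lower and 9.46% higher over all genes, and 1 was lower at an unadjusted p under 0.05 by limma and by the methods' t-test. TFAM, which packs mitochondrial DNA and starts its transcription, had a difference of -0.24 (adjusted p = 0.571). Proteins encoded by mitochondrial DNA, the products of this ribosome, were not analysed here.

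The nuclear-encoded subunits of the respiratory chain and ATP synthase, which are assembled with the products of the mitochondrial ribosome, leaned the other way. Of 59 genes, 13 were higher (22.0%) and 7 were lower (11.9%), with a median difference of 0.17. Over all genes, 9.46% were higher and 11.2% were lower. NDUFC2 and NDUFA2 of complex I were 1.79-fold and 1.67-fold higher and ATP5F1 of ATP synthase was 1.71-fold lower. Cytosolic ribosomal proteins had 19 of 63 genes lower (30.2%) and 5 higher (7.94%), a share close to that of the large mitochondrial subunit, but a median difference of -0.12. Their arrays differed less among themselves (median SD of 0.046 in IPEC-1 and 0.050 in IPEC-J2, beside 0.126 and 0.117 over the members). With the culture notes as a block, the respiratory chain had 5 higher and 5 lower genes and the cytosolic ribosome 4 higher and 11 lower. After centring on the 75th percentile, the respiratory chain had 15 higher and 5 lower and the cytosolic ribosome 2 higher and 4 lower. Over all genes, the 640 higher and 761 lower became 364 and 379 with the block and 800 and 752 after centring. With 1 array left out, they were 355 to 613 and 417 to 572. With any 1 array left out, the respiratory chain had 2 to 4 lower genes. Its higher genes numbered 13, 8 and 9 without IPEC-1 replicates 1, 2 and 3 in turn. Without IPEC-J2 replicates 1, 2 and 3 in turn they numbered 8, 6 and 5. The cytosolic ribosome had 12 lower genes without IPEC-1 replicate 3 or IPEC-J2 replicate 1 and 13 to 16 without any of the others, and 2 higher and 5 lower when genes at the floor on every array were left out of the fit. Differences between these lists were not tested.

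**Figure D5:**
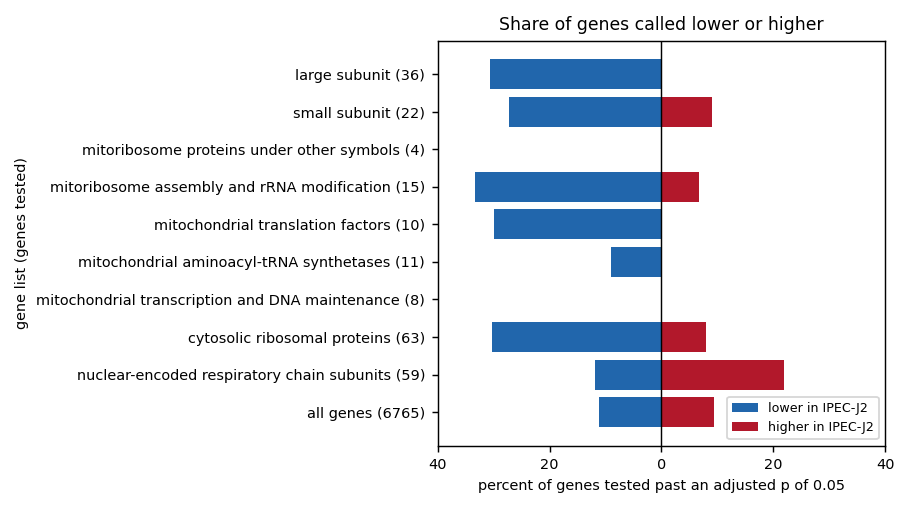
Percent of genes tested (x axis) with an adjusted p under 0.05 from limma, drawn to the left in blue where IPEC-J2 was lower and to the right in red where it was higher, for each gene list (y axis, genes tested in brackets) and for all genes. The large subunit has 30.6% lower and 0 higher genes, the small subunit 27.3% and 9.09%, the respiratory chain 11.9% and 22.0%, and all genes 11.2% and 9.46%.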

How the data were processed

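RNA of 3 IPEC-1 and 3 IPEC-J2 cultures was measured on Affymetrix Porcine Genome Arrays. The authors made the deposited log2 signals, 1 per probe set and array, and the submitters' processing notes name GCOS 1.1.1 and PLIER. The methods describe scaling of each array to a common target signal, background correction, normalization and a summary per probe set, and name another GCOS version. They do not say which of these steps made this table or give its log base. Its values were read as log2 because the floor of every array is exactly 4. Detection calls were not used. Precision is limited by the small number of arrays.

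From 23999 probe sets (124 controls left out), the 10069 with 1 symbol in the platform annotation gave 6765 genes after averaging over each symbol. In 9961 of these probe sets the gene identifier was found in the RefSeq gene table with the same symbol. No normalization was added. The comparison of lines used lmFit and eBayes of limma 3.58.1 (R 4.3.3, tested on simulated data), 2-sided, with Benjamini-Hochberg adjustment over all genes. An exact permutation test of 3 against 3 arrays cannot give a p under 0.1. The methods describe independent experiments, so p-values reflect the spread between cultures of 1 line each.

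The members and lists were chosen with earlier results of these data known. Lists were written from general knowledge. Named members were, per subunit, up to 14 called genes in each direction, the 4 largest differences that missed the test, genes whose probe sets differ in sign and those with a changed structural assignment; in other lists up to 4 called genes. Further genes are named as examples chosen after their values were seen. Alternatives covered probe set choice, normalization, filters, the methods' t-test, blocks and leaving out arrays.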

Additional observations from a re-analysis of the deposited data

How the results depend on the processing

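In the large subunit 11 genes were lower and 0 higher, and in the small subunit 6 were lower and 2 higher. The lower genes of the large subunit numbered 7 after centring on the 75th percentile and 7 by the methods' t-test with adjustment. With the culture notes and the third pair as a block, 4 genes of the large and 2 of the small subunit were lower. Without both arrays of note B, 3 and 2 were lower and 0 of the small subunit higher. With 1 array left out, the large subunit had 6 to 9 lower and 0 to 1 higher genes, and the small subunit 0 to 4 lower and 1 to 2 higher. With the replicate number of the titles as a block, 4 genes of the large subunit and 1 of the small subunit were lower and 0 of the small subunit higher. The labels do not say whether these numbers pair the arrays, and the culture notes link arrays of different numbers. The deviations of same-numbered arrays from the mean of their line correlated at -0.072, -0.134 and 0.079 over 4892 genes. Arrays that share note A or note B correlated at 0.092 and 0.216, and the third pair at 0.134. Deviations from a mean of 3 arrays depend on one another, so these values cannot decide which arrays are paired. Blocks leave 2 residual degrees of freedom in place of 4. The median difference of the large subunit was -0.31 within note B (-0.26 within note A), and its other alternatives lay between -0.28 and -0.14. The median of the small subunit lay between -0.28 and -0.12 over all alternatives. All 19 called members kept their direction wherever they were tested. Leaving out arrays could not change it, because each of them was fully separated between the lines. All 19 stayed called with the culture notes as a random block. Calls also fell over all genes, where 761 were lower and 640 higher: 379 and 364 with the culture notes as a block, 324 and 272 with the replicate number as a block, 397 and 428 without both arrays of note B, 417 to 572 and 355 to 613 with 1 array left out, and 595 and 551 by the methods' t-test with adjustment. After centring they were 752 and 800. The causes of these changes were not tested. Signals near the floor, where no order is known, limit MRPL4 and MRPS27. Through single probe sets at the floor on some arrays, they also limit MRPL3, MRPL35, MRPL52, MRPS2 and MRPS12.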
